A study of Mus musculus with 12 samples.

Results

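S-phase keratinocytes, epidermal cells captured while copying their DNA, were examined in single-cell RNA sequencing of the hairless hind paw epidermis of 12 mice. A cell was a member when it carried at least 5 UMIs (unique molecular identifiers, each standing for 1 captured RNA molecule) of 4 S-phase genes, Hist1h1b, Hist1h1a, Pclaf and Esco2, and at least 2 times as many of these as of 4 genes of G2 and mitosis, Ube2c, Cenpf, Ccnb1 and Cdc20. Cells came from a pool of keratinocytes that held barcodes with 500 to 6000 detected genes, mitochondrial UMIs of at most 5%, at least 0.5% of UMIs from the keratins Krt1, Krt10, Krt5 and Krt14, and no UMI of the immune genes Cd74 or Cd3e. The rule found 7102 cells, which were 6.21% of the 114306 keratinocytes and 5.06% of all 140392 barcodes. All mice were wild-type C57BL/6J and entered the diets at 6 to 8 weeks of age. The regular diet (RD) held 11% fat and the high-fat diet (HFD) 42% fat, each was fed for 10 weeks, and each of the 4 groups of sex and diet held 3 mice with 1 library per mouse. Members numbered 812, 1110 and 439 in the male RD mice, 450, 570 and 685 in the male HFD mice, 320, 649 and 423 in the female RD mice, and 594, 340 and 710 in the female HFD mice.

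In S phase a cell opens its loaded replication origins, unwinds the DNA with the MCM helicase, copies it behind the sliding clamp PCNA, and builds new chromatin from histones that are made almost only in this phase. Genes for the replication enzymes are switched on by E2F factors as the cell leaves G1, and the mRNAs of the replication-dependent histones, which end in a stem-loop bound by SLBP in place of a poly(A) tail, rise with DNA synthesis and are destroyed at its end. In the epidermis cells divide mainly in the basal layer, marked by Krt5 and Krt14, and leave it as they begin to make Krt1 and Krt10.

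The promoters of 5 genes on which the results turn show the sequence side of these programs, linker histone genes of the rule, a core histone gene and a pair of helicase genes. They were taken from RefSeq on the mouse build GRCm38.p6, from 250 bases before to 50 bases after the annotated start, and positions are given from that start. Hist1h1b (RefSeq H1f5, linker histone) lies at chr13:21780576-21780875 on the minus strand, Hist1h1a (H1f1, linker histone) at chr13:23763418-23763717 on the plus strand, Hist1h2ae (H2ac8, core histone) at chr13:23571171-23571470 on the minus strand, Mcm3 at chr1:20820263-20820562 on the minus strand and Mcm6 at chr1:128359656-128359955 on the minus strand. Each sequence is written 5′ to 3′ along its gene, and capitals mark matches, on either strand, with AAACACA for the H1 box, CCAAT for the box of that name, ATTTGCAT for the octamer, TATAAA for the TATA box and TTTNNCGC for the E2F motif, where N is any base and matches can overlap.
Hist1h1b: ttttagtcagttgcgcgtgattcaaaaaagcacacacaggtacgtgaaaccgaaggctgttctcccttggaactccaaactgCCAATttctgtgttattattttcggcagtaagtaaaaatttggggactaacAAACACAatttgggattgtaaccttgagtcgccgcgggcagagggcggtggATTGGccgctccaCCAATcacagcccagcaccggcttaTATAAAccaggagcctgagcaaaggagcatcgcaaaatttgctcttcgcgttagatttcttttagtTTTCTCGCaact
Hist1h1a: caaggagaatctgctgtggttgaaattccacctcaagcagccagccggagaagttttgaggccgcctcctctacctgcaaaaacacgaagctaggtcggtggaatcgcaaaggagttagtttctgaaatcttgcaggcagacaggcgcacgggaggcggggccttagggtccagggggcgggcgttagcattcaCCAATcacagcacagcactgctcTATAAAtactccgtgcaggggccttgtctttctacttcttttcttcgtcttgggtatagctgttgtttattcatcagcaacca
Hist1h2ae: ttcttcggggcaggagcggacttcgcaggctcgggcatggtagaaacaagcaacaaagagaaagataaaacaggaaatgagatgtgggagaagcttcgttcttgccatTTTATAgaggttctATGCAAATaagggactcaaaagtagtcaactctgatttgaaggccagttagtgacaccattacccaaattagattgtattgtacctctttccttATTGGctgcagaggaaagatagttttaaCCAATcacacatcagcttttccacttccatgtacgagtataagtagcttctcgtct
Mcm3: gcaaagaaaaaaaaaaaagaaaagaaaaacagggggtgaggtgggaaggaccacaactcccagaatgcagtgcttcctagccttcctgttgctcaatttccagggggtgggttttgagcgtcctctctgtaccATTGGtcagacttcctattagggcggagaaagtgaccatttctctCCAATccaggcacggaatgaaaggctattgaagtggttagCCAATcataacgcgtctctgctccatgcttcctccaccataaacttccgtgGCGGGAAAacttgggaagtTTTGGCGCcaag
Mcm6: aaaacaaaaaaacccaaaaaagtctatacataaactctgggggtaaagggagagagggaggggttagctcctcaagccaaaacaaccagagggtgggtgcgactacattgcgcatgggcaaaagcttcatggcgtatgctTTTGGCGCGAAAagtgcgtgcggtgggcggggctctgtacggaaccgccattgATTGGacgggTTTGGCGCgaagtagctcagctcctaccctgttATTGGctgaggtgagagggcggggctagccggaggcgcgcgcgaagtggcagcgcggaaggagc

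In these windows Hist1h1b held the H1 box at −117, a CCAAT box at −53 and a TATA box at −28, and Hist1h1a held a CCAAT box at −56 and a TATA box at −33. Mcm6 held E2F matches at −110, −106 and −47, Mcm3 at +20 and +39 and Hist1h1b at +39, while the windows of Hist1h1a and Hist1h2ae held none. Over the 62 of 67 histone genes with a promoter in the table, 85.5% held a CCAAT box, 56.5% a TATA box, 22.6% an octamer and 30.6% the E2F motif, against 42.3%, 14.7%, 1.86% and 7.22% of all 17433 genes. Over 15 of 20 genes of origin licensing and the helicase, 53.3% held the E2F motif, and over 19 of 24 genes of the replication fork 31.6% did. Over 11 of 12 nucleotide synthesis genes it was 9.09%, and the same over 11 of 11 genes of histone mRNA processing and histone chaperones. Such matches are a description of letters, not of bound sites. Both linker histone genes and Hist1h2ae have 1 exon, while Mcm3 and Mcm6 have 17 each.

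The 12 libraries held 7370 to 16254 barcodes and 134449247 to 194673581 UMIs, and the UMIs summed over S-phase cells came to 4922441 to 13531825 per mouse. According to the file headers, male libraries were counted with Cell Ranger 6.1.0 and female libraries with 7.2.0, so sex and counting software cannot be told apart. The 7102 members carried 7096 distinct barcode strings, 6 of which occurred in 2 libraries. An S-phase cell had a median of 12671 UMIs and 3354 genes, against 7365 UMIs and 2286 genes in a resting basal keratinocyte, which is a cell without UMIs of the rule's cell-cycle genes, Mki67 or Top2a and with Krt5 and Krt14 above Krt1 and Krt10, and 14568.5 UMIs in a G2/M keratinocyte, chosen by the mirrored rule. Median UMIs per S-phase cell were 7697 to 12282 in male RD, 12012 to 14695 in male HFD, 10372 to 14183.5 in female RD and 14365.5 to 15905 in female HFD mice.

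A marker that the rule did not use was compared between the classes, as a description that cannot test the label. Hist1h2ap, a core histone gene listed as a marker of these cells, had a UMI in 84.6% of S-phase cells, in 44.2% of G2/M cells and in 9.80% of resting suprabasal keratinocytes, which had nearly the same depth at a median of 12105 UMIs. Those resting cells were chosen with no UMI of the rule's cell-cycle genes, Mki67 or Top2a and with Krt1 and Krt10 above Krt5 and Krt14. That choice sets part of their low share. The mirrored rule likewise limits UMIs of the S-phase genes in G2/M cells, and its part in their share was not tested. Hist1h2ap is a histone gene, as are Hist1h1b and Hist1h1a of the rule, so a high share in S-phase cells is no independent check. Among the genes that chose the members, Hist1h1b, Pclaf (a PCNA-binding factor), Esco2 (a cohesin acetyltransferase) and Hist1h1a had a UMI in 94.5%, 94.6%, 61.8% and 49.2% of S-phase cells. The median member carried 17 S UMIs and 3 G UMIs, and 21.5% of members carried no G UMI. At the edge of the rule, the 908 cells with 4 S UMIs had 62.4 CPM (the gene's UMIs scaled to a common total per class and mouse) of the proliferation gene Mki67 and 46.0 CPM of the topoisomerase gene Top2a, and the 566 members with 5 S UMIs had 68.7 and 58.1 CPM. Cells just inside and just outside the threshold therefore lay close together. Of 13263 cells with 5 S UMIs or more, those that failed the ratio to G UMIs are not members, with 204 cells just inside that ratio and 388 just outside it.

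Against G2/M keratinocytes, S-phase cells carried more RNA of nearly the whole replication machinery. The values in the next paragraphs are means over 12 mice of CPM in summed cells, and since both classes were chosen by cell-cycle genes they are a description without a test. Among the genes with the highest ratios, the repair glycosylase gene Ung stood at 32.5 ± 11.1 CPM (SD, n = 12) in S-phase and 2.98 CPM in G2/M cells, 10.9-fold higher, and E2f1, a transcription factor of the G1/S switch, at 44.4 ± 15.5 against 4.84 CPM, 9.17-fold. The S-phase cyclin genes Ccne1 and Ccne2 were 8.51-fold and 7.68-fold higher, and Chaf1b, a subunit of the chromatin assembly factor that places histones behind the fork, was 8.13-fold higher at 57.0 ± 9.25 against 7.01 CPM. Each of these was higher in S-phase cells in 12 of 12 mice. For scale, of 9528 genes at 5 CPM or more in either class, 12.5% were higher in S-phase cells in every mouse and 17.1% lower, with a median fold of 0.973.

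Among genes of origin licensing and the replicative helicase, 19 of 20 were higher in S-phase than in G2/M cells in every mouse, with a median fold of 3.32. The helicase subunit genes themselves spread from Mcm2 (60.5 ± 16.8 CPM, 6.51-fold) over Mcm3 (102 ± 27.1 CPM, 5.55-fold), Mcm6 (4.55-fold), Mcm4 (3.91-fold) and Mcm5 (3.72-fold) to Mcm7 (106 CPM, 3.37-fold). Cdt1, the loader of the helicase, was 5.61-fold higher, and Gmnn, which blocks Cdt1, was 2.27-fold higher. The exception was Dbf4, the activator of the origin kinase, at 46.0 CPM in S-phase and 82.4 CPM in G2/M cells and lower in all 12 mice. At the fork, 23 of 24 genes were higher in every mouse, with a median of 2.85-fold. Pcna stood at 329 ± 81.9 against 76.8 CPM (4.28-fold), Lig1, which joins Okazaki fragments, at 148 ± 28.5 against 30.0 CPM (4.93-fold), Pola1 of the priming polymerase at 4.52-fold, and Rnaseh2b at the low end at 1.19-fold and higher in 10 of 12 mice.

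RNA of nucleotide synthesis genes was higher too, though less evenly. All 12 genes of the list were higher in every mouse, with a median of 1.75-fold and a range of 1.23-fold to 7.02-fold. Highest was Rrm2, the small subunit of ribonucleotide reductase (157 ± 82.2 against 22.3 CPM, 7.02-fold), with Dut at 3.19-fold, Tyms at 2.31-fold, Tk1 at 1.73-fold and Rrm1, the large subunit of the same reductase, at 1.57-fold. Of genes for histone mRNA processing and histone chaperones, 8 of 10 were higher in every mouse, including Slbp, the stem-loop binding protein (154 against 39.8 CPM, 3.87-fold), and Nasp, a chaperone of H3 and H4 (287 against 137 CPM, 2.09-fold), while Lsm10 and Lsm11 of the histone pre-mRNA processing complex were at 0.908-fold and 0.939-fold. Fork protection and repair genes were higher in every mouse in 21 of 23 cases, with a median of 2.85-fold, such as Uhrf1 (3.45-fold), which reads newly copied DNA for methylation, the checkpoint mediator Clspn (3.16-fold), and the fork protection partners Timeless (4.64-fold) and Tipin (2.73-fold). The checkpoint kinase gene Atr was at 0.934-fold.

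Cohesion genes divided. Only 4 of 11 were higher in S-phase cells in every mouse, with a median of 1.15-fold, and Rad21, a core subunit of cohesin, was lower in all 12 mice (115 against 194 CPM, 0.595-fold), while Smc3, another core subunit, was at 1.35-fold. Of 26 genes of G1/S control at 5 CPM or more, 15 were higher in every mouse, with a median of 1.499-fold. Among the G2 and mitosis genes none of 25 was higher in every mouse and 22 were lower in every mouse, with a median of 0.509-fold, from Cenpa of the centromere (52.6 against 412 CPM, 0.128-fold) to Top2a, which was close in the 2 classes at 340 and 367 CPM (0.927-fold, higher in 3 of 12 mice).

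**Figure D1:**
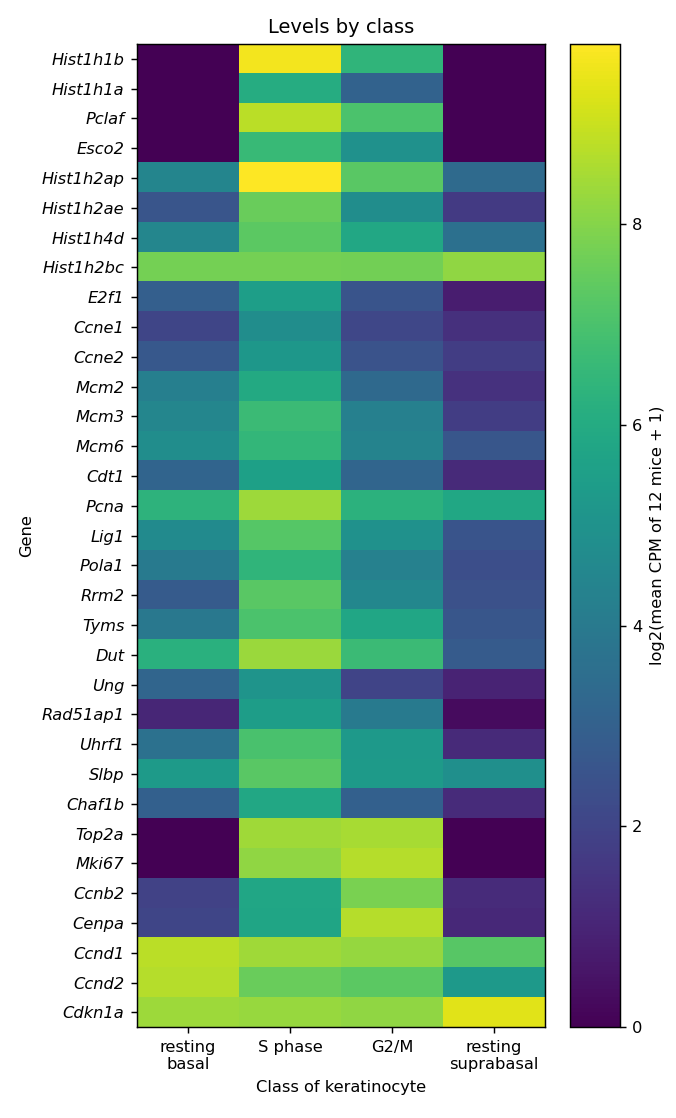
Heat map of 33 genes (rows, grouped by role) in resting basal, S-phase, G2/M and resting suprabasal keratinocytes (columns), coloured by log2 of the mean CPM of 12 mice plus 1. Replication genes such as Mcm3 and Pcna are brightest (highest) in the S-phase column, mitotic genes such as Cenpa (52.6 CPM in S phase, 412 CPM in G2/M) in the G2/M column, and Top2a is nearly equal in both.

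Resting basal keratinocytes were chosen to have no UMI of the rule's cell-cycle genes, Mki67 or Top2a, which sets how far cell-cycle genes can lie apart from them, so the following folds describe the classes and are not ranked against each other. All 25 G2 and mitosis genes were higher in S-phase cells in every mouse, and the 23 of them with a UMI in resting basal cells had a median of 27.5-fold and a range of 4.84-fold to 138-fold. The helicase list was 5.06-fold higher in the median (20 of 20 genes), the fork list 3.95-fold (24 of 24) and the nucleotide list 4.56-fold (11 of 12). Pbk, a mitotic kinase gene, was 150-fold higher, Aurkb, the kinase gene of the chromosomal passenger complex, 138-fold, and Ccna2, the cyclin of S phase and G2, 61.6-fold. The summed level of the 20 helicase genes was 1076 ± 315 CPM in S-phase, 410 CPM in G2/M, 282 CPM in resting basal and 94.6 CPM in resting suprabasal cells, so the resting basal level lay nearer to the G2/M than to the S-phase level.

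Not every gene that serves proliferation was higher in S-phase than in resting basal cells. Ccnd1, the cyclin of G1 entry, stood at 335 CPM in S-phase, 303 CPM in G2/M and 435 CPM in resting basal cells, and Ccnd2, its paralog, at 189, 159 and 421 CPM, both lower in S-phase than in resting basal cells in all 12 mice. The inhibitor gene Cdkn1a was at 312 CPM in S-phase and 328 CPM in resting basal cells and reached 655 CPM in resting suprabasal cells. Of 12 genes of basal keratinocyte identity, 10 were lower in S-phase than in resting basal cells in every mouse, with a median of 0.693-fold, among them Krt15 (409 against 1367 CPM), Col17a1 of the hemidesmosome (778 against 1122 CPM) and the integrin gene Itga6 (298 against 449 CPM). Ptn, a heparin-binding growth factor gene, went the other way at 320 against 208 CPM in all 12 mice. The classes set part of these differences, since S-phase cells include cells with suprabasal keratins and resting basal cells do not. The 12 basal genes summed to 2946 CPM in S-phase cells, 3422 CPM in S-phase cells with basal keratins and 4819 CPM in resting basal cells. All 5 genes of a migratory keratinocyte list were lower in every mouse, with a median of 0.167-fold.

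Replication-dependent histone genes stood higher in S-phase than in G2/M cells with few exceptions, and their level varied widely between mice. Of 67 genes, 3 had no UMI. Without the rule's genes Hist1h1b and Hist1h1a, 35 genes reached 5 CPM in S-phase or G2/M cells, and 33 of these were higher in S-phase cells in every mouse, with a median of 3.59-fold and a range of 1.02-fold to 7.01-fold. Hist1h2ap was at 887 ± 704 CPM in S-phase, 157 CPM in G2/M and 21.1 CPM in resting basal cells, Hist1h2ae at 186 ± 94.2 against 26.6 CPM (7.01-fold), and the linker histone gene Hist1h1e at 367 against 106 CPM (3.45-fold). Hist1h2bc did not follow the group, with 211, 207 and 214 CPM in S-phase, G2/M and resting basal cells. Hist1h1b, which chose the members, was 9.31-fold higher in S-phase than in G2/M cells. Summed over the 65 genes outside the rule, histone RNA was 2712 ± 1583 CPM in S-phase, 899.6 CPM in G2/M, 570.3 CPM in resting basal and 535 CPM in resting suprabasal cells.

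The spread between mice followed sex and with it the counting software. The same sum in S-phase cells was 4165 ± 794 CPM (SD, n = 3) in male RD, 4161 ± 603 in male HFD, 1355 ± 320 in female RD and 1168 ± 189 in female HFD mice. Hist1h2ap was 1618, 948 and 2253 CPM in the male RD mice, 749, 1380 and 1734 CPM in the male HFD mice, 378, 124 and 613 CPM in the female RD mice and 362, 89.2 and 393 CPM in the female HFD mice. Every male mouse lay above every female mouse, and mice within a group differed by more than the diets did. Hist1h1e was 367, 565 and 587 CPM in male RD, 706, 803 and 602 CPM in male HFD, 138, 144 and 120 CPM in female RD and 114, 146 and 113 CPM in female HFD mice, again without overlap of the sexes. Hist1h4d, by contrast, was 143, 232 and 118 CPM in male RD and 148, 100 and 127 CPM in female RD mice, which overlapped. Separation of the sexes was common, since 6512 of 9332 genes outside the rule that were called between the sexes had no overlap after TMM scaling. Most histone mRNAs lack a poly(A) tail, and the libraries were made by 3′ priming, so these counts cover the part of histone RNA that was primed. Several histone genes are near-identical copies, so reads could be split between them.

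Within S-phase cells, the 5573 members with at least 1 G UMI were set against the 1529 without. The rule fixes part of this contrast, since it asks for more S UMIs, among them those of 2 linker histone genes, where a cell has more G UMIs, and the values are therefore a description from which no order within S phase is read. All 35 histone genes outside the rule were higher in cells with G UMIs, with a median of 3.52-fold and a range of 1.37-fold to 5.64-fold, as were all 25 G2 and mitosis genes, with a median of 3.14-fold. The helicase list had a median of 1.08-fold, with 12 of 20 genes higher, the fork list was at 1.16-fold and the nucleotide list at 1.24-fold. Ung (0.462-fold), the GINS helicase subunit gene Gins2 (0.605-fold), Ccnd2 (0.679-fold), Ccnd1 (0.70-fold), E2f1 (0.783-fold) and Mcm2 (0.825-fold) were lower in cells with G UMIs. Median depth was 13058 UMIs per cell with and 11004 without G UMIs, and cells with G UMIs carried a median of 21 S UMIs against 7. The share of members without a G UMI was 26.7%, 22.4% and 28.9% in male RD, 35.6%, 28.2% and 33.0% in male HFD, 16.2%, 14.2% and 10.9% in female RD and 11.3%, 10.9% and 13.4% in female HFD mice, and was higher in every male than in every female mouse.

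**Figure D2:**
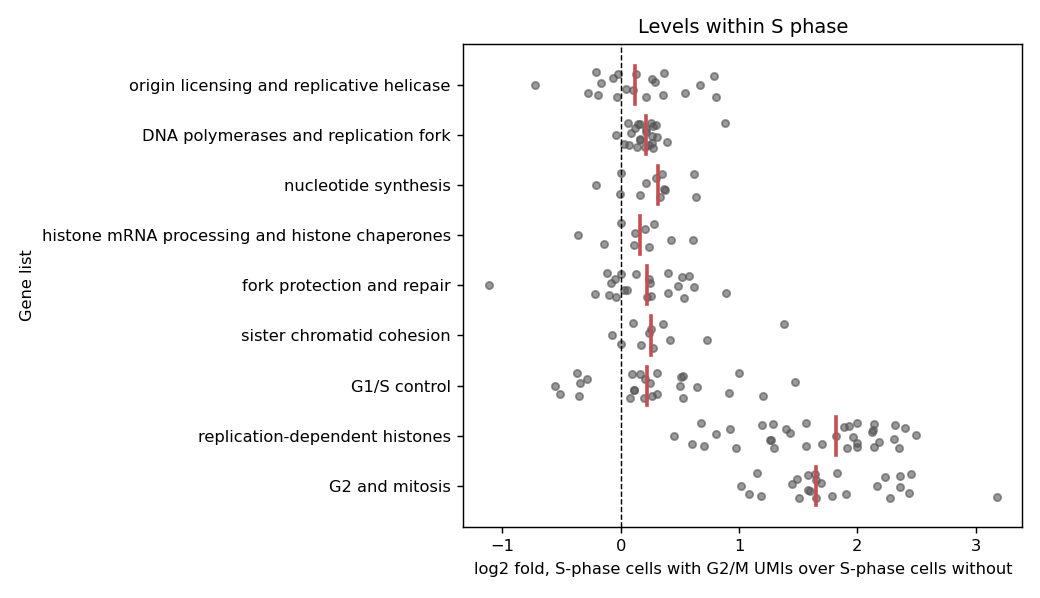
Fold change, on a log2 axis, between S-phase cells with at least 1 UMI of the G genes and those without, for each gene (points) of 9 lists, with the median of each list as a red line. Histone and G2/mitosis genes lie to the high side (medians 3.52-fold and 3.14-fold), while the helicase and fork lists sit near no change (1.08-fold and 1.16-fold).

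Most S-phase cells were of the basal kind, yet cells in which Krt1 and Krt10 exceeded Krt5 and Krt14 also entered the class. There were 5672 members of the first kind, 1425 of the second and 5 ties. Of basal-keratin cells 6.06% to 15.0% per mouse were in S phase, and of suprabasal-keratin cells 1.28% to 3.49%, with no overlap. The suprabasal-keratin share of S-phase cells was 23.6%, 21.4% and 18.7% in male RD, 20.4%, 22.1% and 22.8% in male HFD, 16.3%, 19.6% and 15.4% in female RD and 17.8%, 14.4% and 19.9% in female HFD mice. A droplet with a basal S-phase cell and a suprabasal cell would be counted here, and 19.0% of S-phase cells ranked among the barcodes with the highest doublet scores, against 20.3% of G2/M, 4.22% of resting basal and 6.00% of resting suprabasal cells. With those barcodes removed the mean share fell from 21.2% to 12.1% in male RD, from 21.8% to 15.5% in male HFD, from 17.1% to 13.3% in female RD and from 17.4% to 13.4% in female HFD mice. Cycling cells are also large, and which of the marked cells were doublets was not tested.

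Markers of other cell types were low in the sums of S-phase cells. The pool had left out barcodes with a UMI of Cd74 or Cd3e, which sets part of the low sums of Langerhans and T cell genes. Langerhans cell genes summed to 21.5 to 32.9 CPM per mouse, mostly from Mfge8 (18.9 CPM), while the defining gene Cd207 stood at 0.507 CPM. T cell genes summed to 11.2 to 23.4 CPM, of which Thy1 made 12.8 CPM and Cd3d 0.106 CPM, melanocyte genes to 1.37 to 11.1 CPM and Merkel cell genes to 3.62 to 14.4 CPM. Genes of a fibroblast and endothelium list summed to 61.4 to 120 CPM, nearly all of it Dcn at 88.8 CPM, which the study counts among markers of migratory keratinocytes, with Col3a1, Lum and Cdh5 at 0.

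The share of keratinocytes in S phase was compared between diets and sexes. It was 6.38%, 7.96% and 5.81% in the male RD mice (6.72% ± 1.12, SD, n = 3) and 8.00%, 7.22% and 7.69% in the male HFD mice (7.64% ± 0.394). In females it was 3.87%, 5.49% and 4.31% with RD (4.56% ± 0.837) and 5.63%, 4.07% and 8.04% with HFD (5.91% ± 2.00). RD and HFD mice overlapped in both sexes. The other cycling classes did not all move this way, since in males the mean G2/M share was 6.36% with RD and 5.43% with HFD, and the share of cells with at least 5 UMIs of the S and G genes together that met neither rule was 4.14% (3.86% to 4.52%) with RD and 2.99% (2.53% to 3.23%) with HFD, without overlap and without a test. In females G2/M shares were 7.02% and 7.26% and the latter shares 3.96% and 4.10%. The difference of HFD over RD was 0.92 percentage points in males (exact, 2-sided permutation test, p = 0.3, the smallest possible being 0.1 with 3 mice against 3), 1.36 points in females (exact p = 0.4) and 1.14 points with mice permuted within sex (exact p = 0.135, adjusted p = 0.4 over 12 tests of shares). Males had a mean of 7.18% and females 5.23%, a difference of 1.94 points (exact permutation p = 0.0325, adjusted p = 0.130). In S-phase cells, 2 of the rule's 4 S genes were called higher and 1 lower in males (median log2 difference 0.64 after TMM). Of its 4 G genes, 2 were higher and 1 lower (0.22). Sex differences in shares and ratios of these classes therefore cannot be told apart from the levels of the rule's genes or the counting software.

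The number of S-phase cells per G2/M cell, as log2 of the ratio, was higher with HFD by 0.41 in males (exact permutation p = 0.2) and 0.30 in females (exact p = 0.7), and by 0.35 over both (exact p = 0.175, adjusted p = 0.4), none of which passed. Between the sexes it differed by 0.78, higher in males (exact permutation p = 0.0152, adjusted p = 0.0909). The suprabasal-keratin share of S-phase cells differed between diets by 0.430 points over both sexes (exact p = 0.725, adjusted p = 0.87), and between males and females by 4.28 points (21.5% against 17.2%, exact permutation p = 0.00866, adjusted p = 0.0909). With marked doublets removed, the mean suprabasal-keratin share in male RD mice (12.1%) lay below those in female RD (13.3%) and female HFD mice (13.4%). None of the 12 tests passed after adjustment. When cells were thinned to 5000 UMIs, which left out 18.1% of male RD keratinocytes and 4.24% of male HFD ones, the male means were 7.71% ± 2.91 with RD and 7.06% ± 0.184 with HFD, so the male difference changed its sign.

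**Figure D3:**
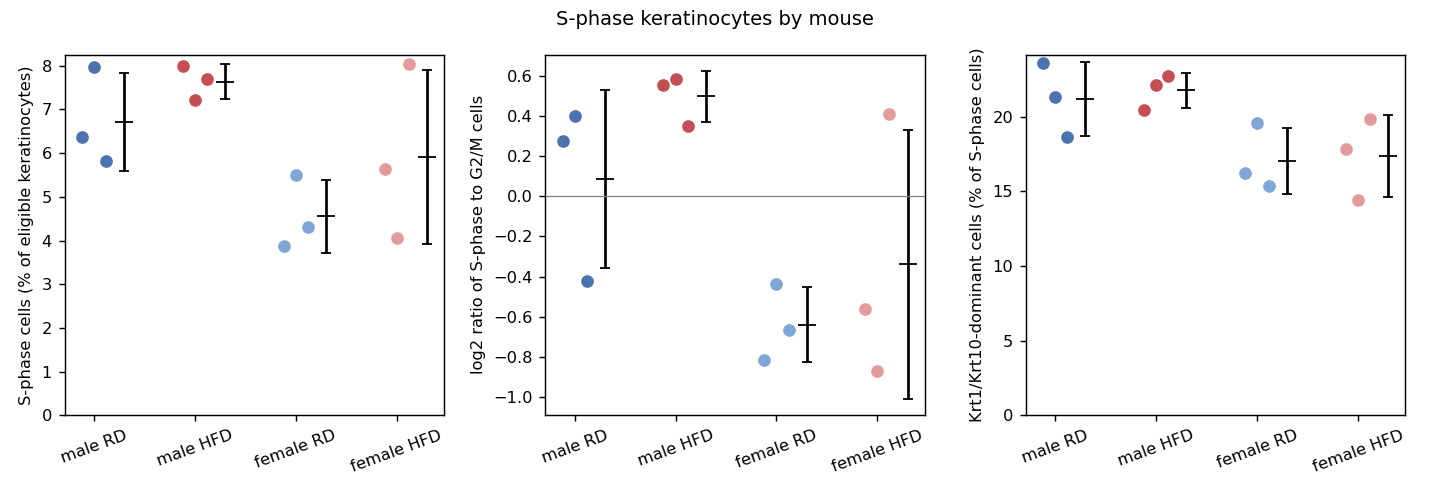
S-phase share of keratinocytes (percent), log2 ratio of S-phase to G2/M cells, and share of S-phase cells in which Krt1 and Krt10 exceed Krt5 and Krt14 (percent), in 3 panels by group, with mice as points and mean ± SD as bars. RD and HFD mice overlap in every panel within each sex, and female HFD mice spread most in the S-phase share, from 4.07% to 8.04%.

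In S-phase cells of males no gene passed an adjusted p of 0.05 between HFD and RD. Of 11347 genes tested with edgeR's quasi-likelihood test on UMIs summed per mouse 0 were called (percent called 0), 811 had an unadjusted p under 0.05 (3.03% higher and 4.12% lower), and DESeq2 called 7. The genes with the smallest p were Gm42418 at 5781, 5860 and 8690 CPM in RD and 14691, 14125 and 11216 CPM in HFD mice (log2 fold change 1.02 ± 0.15 SE, edgeR adjusted p = 0.431), and AY036118 at 285, 256 and 317 CPM against 447, 402 and 385 CPM (log2 fold change 0.56, adjusted p = 0.549). Both gene models overlap ribosomal RNA sequence. Arc, an immediate early gene, stood at 48.9, 49.8 and 57.3 CPM against 72.7, 72.6 and 90.4 CPM (log2 fold change 0.63, adjusted p = 0.431). Endou stood at 41.1, 39.5 and 42.2 CPM against 25.0, 22.9 and 29.4 CPM (log2 fold change −0.63, adjusted p = 0.431). Dcn, a proteoglycan gene, stood at 108, 118 and 104 CPM against 78.2, 77.9 and 75.7 CPM (log2 fold change −0.48, adjusted p = 0.549), and was at 128 CPM in resting basal and 4.58 CPM in resting suprabasal keratinocytes as a mean of 12 mice. The study uses Dcn as a marker of migratory keratinocytes. The migratory keratinocyte list used here, which does not hold Dcn, had 3 of 4 tested genes above 0 in males and summed to 456 ± 78.1 CPM with RD and 535 ± 117 CPM with HFD. The fibroblast genes Col1a1 and Col1a2 were at 0.387 and 0.051 CPM in S-phase cells. Which cells carried the Dcn difference was not tested. Groups did not overlap for these 5 genes, but they were picked for the smallest p, which favours such groups. How many of all genes tested had groups without overlap was not counted. None of the 5 passed the test.

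In females 51 genes passed, 33 higher and 18 lower with HFD, of 11881 tested (percent called 0.429, edgeR adjusted p under 0.05), beside 8.32% and 7.59% higher and lower at an unadjusted p under 0.05. The count rested on single mice, since it was 0 when any RD mouse or the first HFD mouse was left out, 8 without the third HFD mouse and 223 without the second HFD mouse, and DESeq2 called 164. With replicate numbers as a block, which the labels do not state as pairs, 0 genes passed. The steepest rise was in Lce1m, a cornified envelope gene, at 3.66, 7.93 and 7.19 CPM in RD and 43.1, 45.3 and 171 CPM in HFD mice (log2 fold change 3.77 ± 0.58 SE, adjusted p = 0.0269). The 12 genes of terminal differentiation, of which 11 were tested, had a median log2 fold change of 0.61 in the same cells, with 10 of 11 above 0 and summed levels of 1316 to 2350 CPM in RD and 1418 to 3246 CPM in HFD mice. Of the 11, 4 were higher at an unadjusted p under 0.05, against 8.32% of all genes. Basal keratinocyte genes had a median of −0.15, with 3 of 12 above 0. At that p, 5 of them were lower and 1 higher, against 7.59% and 8.32% of all genes. Whether cornified cells or their RNA in the same droplets carried the Lce1m rise was not tested.

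Other called genes rose by smaller amounts. Atf5, a stress-response transcription factor gene, was 15.0, 16.9 and 14.9 CPM in RD and 30.5, 27.1 and 29.1 CPM in HFD females (log2 fold change 0.89, edgeR adjusted p = 0.0164), and Sdf2l1, an ER chaperone cofactor gene, 16.3, 18.0 and 18.5 against 37.5, 26.4 and 30.9 CPM (0.86, adjusted p = 0.0414). Pycard, the inflammasome adaptor gene, was 137, 146 and 118 against 248, 201 and 230 CPM (0.77, adjusted p = 0.0269). Coa3, an assembly factor of cytochrome c oxidase, was 46.1, 45.3 and 46.1 against 72.5, 73.6 and 79.7 CPM (0.72, adjusted p = 0.0164), Zranb2, a splicing factor gene, 47.5, 38.1 and 46.5 against 92.3, 75.4 and 76.9 CPM (0.90, adjusted p = 0.0164), and Pdzd11 13.2, 14.9 and 12.5 against 25.8, 23.1 and 25.5 CPM (0.87, adjusted p = 0.0238). Genes were named only where the groups did not overlap, which held for all 51 called genes. The separation in these values therefore adds nothing to the calls. Slc27a3, a fatty acid transport family gene (log2 fold change 1.03), Tnfrsf18 (0.88) and the cap-binding gene Ncbp2 (0.68) were also called.

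Genes that fell in females included Angptl2, a secreted angiopoietin-like gene, at 41.4, 41.8 and 38.1 CPM in RD and 16.2, 22.6 and 21.4 CPM in HFD mice (log2 fold change −1.02 ± 0.12 SE, edgeR adjusted p = 0.0164). The taurine transporter gene Slc6a6 was 541, 423 and 529 against 235, 320 and 265 CPM (−0.86, adjusted p = 0.0164), the metallothionein gene Mt2 2325, 1917 and 2171 against 1355, 1624 and 1235 CPM (−0.60, adjusted p = 0.0330), and Nin, which anchors microtubules at the centrosome, 41.8, 39.6 and 43.6 against 23.7, 30.3 and 25.8 CPM (−0.65, adjusted p = 0.0269). Groups did not overlap for any of these, as the choice of named genes required. The transcription factor genes Irx4 (−0.72), Foxq1 (−0.69) and Hlf (−0.64), Plcg2 (−0.67) and 2010300C02Rik were called as well. Of the 20 genes named for females, none was called in males, where 8 had the same sign, and none over both sexes, a fit that holds the same female mice. In the comparisons of the diet change between classes, over both sexes, 0 of the 20 were called against G2/M cells and 0 against resting basal cells. The changes in females are therefore not shown to be particular to S-phase cells.

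Of the lists of the S-phase program, 1 of 12 nucleotide genes, 1 of 10 histone processing and chaperone genes and 1 of 46 histone genes tested were called in females, and none of the 20 helicase, 24 fork, 23 fork protection, 11 cohesion and 26 G1/S control genes, beside 0.429% of all genes. Tyms, thymidylate synthase, was 107, 110 and 94.4 CPM in RD and 142, 144 and 140 CPM in HFD mice (log2 fold change 0.45, edgeR adjusted p = 0.0460), and Asf1b, a chaperone of H3 and H4, was 61.6, 57.5 and 61.3 against 83.9, 79.8 and 81.2 CPM (0.45, adjusted p = 0.0432). Hist1h3c was the called histone gene, lower at 25.8, 25.0 and 31.4 against 14.7, 19.0 and 17.3 CPM (−0.69, adjusted p = 0.0460), and the 46 tested histone genes had a median log2 fold change of −0.24 in females with 10 above 0, against −0.03 over 57 genes in males. Tyms and Asf1b were named after their values were seen.

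The response to diet differed between the sexes for 3 genes of 12677 (percent called 0.0237, edgeR interaction term, beside 3.47% and 5.63% of genes with a larger and a smaller change in males at an unadjusted p under 0.05). Zranb2 was 96.8, 77.0 and 99.8 CPM in male RD and 73.7, 71.4 and 77.9 CPM in male HFD mice, opposite to its rise in females (interaction −1.18 on the log2 scale, adjusted p = 0.0260). Pdzd11 was 35.5, 36.7 and 45.7 against 37.0, 36.1 and 34.8 CPM in males (−0.97, adjusted p = 0.0397), and Coa3 79.7, 84.7 and 94.3 against 81.8, 81.7 and 79.1 CPM (−0.79, adjusted p = 0.0260). In female RD mice these genes were at their lowest, and the female HFD values lay nearer to the male ones. The 3 calls were lost when any of 9 mice was left out, among them every male HFD and every female RD mouse, and 51 genes passed without the second male RD mouse. With replicate numbers as a block 0 genes passed.

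Over both sexes, with sex as a covariate, 0 of 12677 genes passed (percent called 0, edgeR), 1567 had an unadjusted p under 0.05 (6.82% higher and 5.54% lower), and DESeq2 called 128. The lowest adjusted p of 0.0799 was shared by Igfbp6 (log2 fold change 0.50), Josd2 (0.39), Nfatc1 (0.33), Nup43 (0.33), Odf2 (−0.38), and by Mcm3 and Gins2 of the helicase list. Mcm3 was 71.1, 70.6 and 74.4 CPM in male RD, 82.9, 86.0 and 84.2 CPM in male HFD, 119, 111 and 114 CPM in female RD and 146, 132 and 135 CPM in female HFD mice (log2 fold change 0.28). Gins2 was 41.8, 36.9 and 49.8 CPM in male RD, 58.6, 52.8 and 55.7 CPM in male HFD, 40.6, 40.7 and 37.6 CPM in female RD and 62.8, 45.3 and 57.0 CPM in female HFD mice (log2 fold change 0.46). Within each sex the HFD mice lay above the RD mice for both genes, which were picked for their low p, and neither passed.

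Most genes of 5 replication lists leaned toward HFD, each by little, while 3 other lists had medians between −0.05 and 0.0068. Of 24 genes at the fork, 23 had a log2 fold change above 0 over both sexes, with a median of 0.21 and 16 higher at an unadjusted p under 0.05, where 6.82% of all genes tested were higher. Of 20 helicase genes 17 were above 0 (median 0.13, 8 higher), of 12 nucleotide genes 12 (median 0.17, 6 higher), of 11 histone processing and chaperone genes 9 (median 0.10, 5 higher) and of 23 fork protection genes 18 (median 0.11, 4 higher). No gene of these 5 lists was lower at that level. Of 26 genes of G1/S control 12 were above 0 (median −0.0032, 7 higher and 2 lower), of 11 cohesion genes 8 (median 0.0068, none higher or lower) and of 59 histone genes tested 23 (median −0.05, 1 higher and 4 lower). Over all genes tested the median was 0.005 with 6501 above 0. In males alone the fork list had 23 of 24 genes above 0 (median 0.21, 9 higher) and the helicase list 18 of 20 (median 0.17, 6 higher), where 3.03% of all genes were higher at that p. In females alone they had 20 of 24 (median 0.11, 11 higher) and 15 of 20 (median 0.15, 7 higher), where 8.32% of all genes were higher. Of 23 fork protection genes 22 were above 0 in males and 9 in females, and in the diet by sex interaction none of the 23 was called, 19 were above 0 and 3 were higher at an unadjusted p under 0.05, against 3.47% of all genes. None of these genes passed over both sexes. The rule's S genes in S-phase cells summed to 1137 to 1734 CPM in male RD and 1420 to 1767 CPM in male HFD mice, with overlap. In females they summed to 1129 to 1161 CPM with RD and 1315 to 1375 CPM with HFD, without overlap. Median UMIs per S-phase cell were also higher in HFD than in RD mice, with overlap in males, and the part of depth or of position within S phase in the list values was not tested.

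Genes of cholesterol synthesis and uptake leaned the other way. Over both sexes 2 of 20 had a log2 fold change above 0, with a median of −0.24 and 8 lower at an unadjusted p under 0.05, against 5.54% of all genes. This lean was not particular to S-phase cells. The diet change in S-phase cells minus that in G2/M cells had a median of 0.08 (14 of 20 above 0, 2 higher and none lower at that p). Minus that in resting basal cells the median was −0.05 (4 of 20 above 0, none higher or lower at that p). In males none of 20 was above 0 (median −0.40, 12 lower, against 4.12% of all genes), and in females 8 of 20 were (median −0.15), with 3 lower and 1 higher against 7.59% and 8.32% of all genes. Hmgcs1, which makes the HMG-CoA of the pathway, was 162, 143 and 175 CPM in male RD and 131, 117 and 116 CPM in male HFD mice (log2 fold change −0.36, edgeR adjusted p = 0.55), without overlap. Their summed level was 938 ± 108 CPM in male RD, 708 ± 30.3 in male HFD, 833 ± 67.2 in female RD and 792 ± 117 in female HFD mice, so only the male groups lay apart. Most markers of suprabasal cells moved with the cholesterol genes in males. Their 13 genes summed to 18652 to 20558 CPM in male RD and 15623 to 17449 CPM in male HFD mice, without overlap, with 2 of 13 log2 fold changes above 0 and a median of −0.19. The cholesterol genes themselves summed to 2197 CPM in resting suprabasal and 653 CPM in resting basal cells, and to 1290 CPM in S-phase cells with suprabasal keratins and 660.1 CPM in those with basal keratins. At an unadjusted p under 0.05, 2 of the 13 suprabasal genes were higher and 3 lower in males. The mean suprabasal-keratin share of male S-phase cells was 21.2% with RD and 21.8% with HFD, and 12.1% and 15.5% with marked doublets removed. Marked doublets made up 11.2% to 24.3% of S-phase cells in male RD and 8.44% to 15.5% in male HFD mice. The part of suprabasal cells or of doublets in the male difference was not tested. Terminal differentiation genes had a median of −0.76 in males, with 2 of 12 above 0, and of 0.61 in females. In males their summed level was 3075 to 7895 CPM with RD and 2733 to 3759 CPM with HFD, with overlap.

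**Figure D4:**
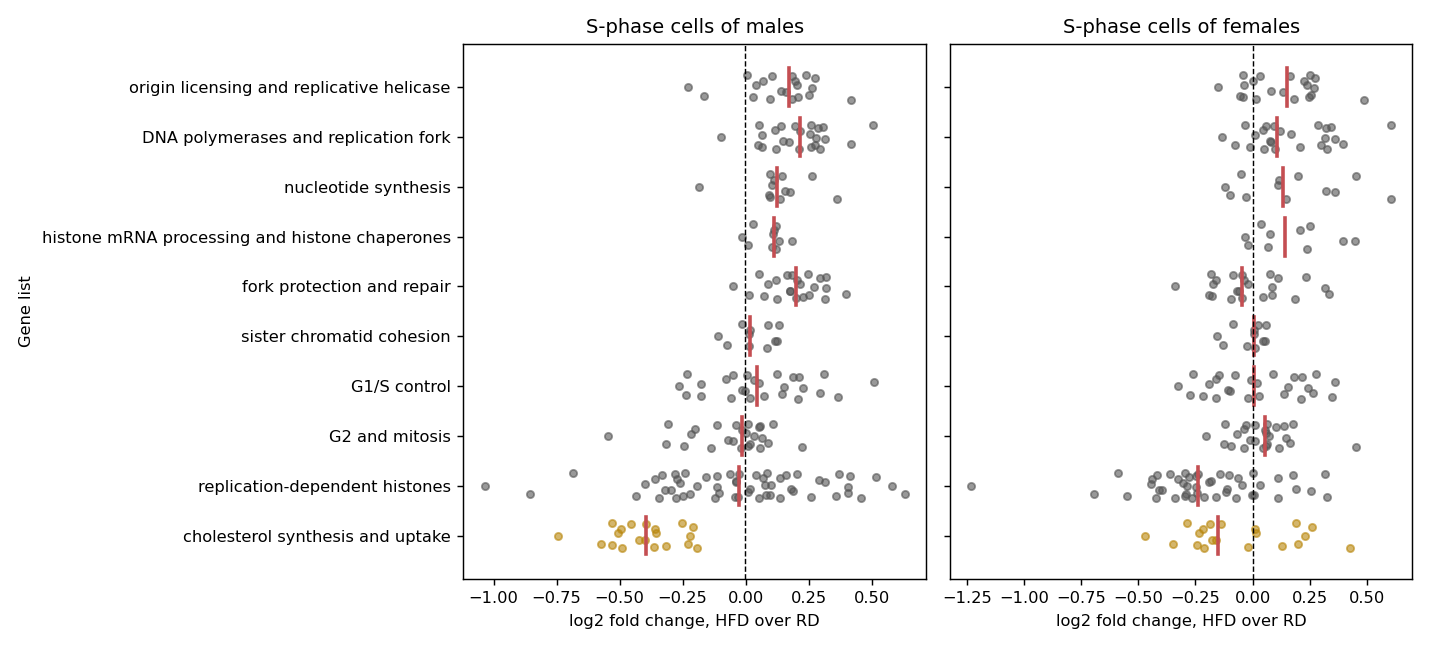
Log2 fold change of HFD over RD in S-phase cells for each gene (points) of 10 lists, males and females in separate panels, with the median of each list as a red line. The fork and helicase lists lie to the right of 0 in both panels (medians 0.21 and 0.17 in males, 0.11 and 0.15 in females), and the cholesterol list lies to the left in males (median −0.40).

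The change with diet was compared between S-phase and G2/M cells of the same mice, over both sexes. The difference passed for 16 of 12682 genes (percent called 0.126, edgeR with mouse as a factor), 14 in the direction of S-phase cells, and 3 of these were helicase subunit genes. Mcm6 in S-phase cells was 62.2, 64.1 and 67.6 CPM in male RD, 75.9, 67.5 and 75.6 CPM in male HFD, 106, 99.0 and 97.4 CPM in female RD and 127, 116 and 114 CPM in female HFD mice. In G2/M cells it was 17.9, 19.8 and 16.3, then 17.4, 13.3 and 12.7 in males, and 23.8, 25.2 and 25.2, then 22.1, 20.4 and 21.6 CPM in females. The gap between the classes widened with HFD by 0.53 ± 0.08 SE on the log2 scale (adjusted p = 0.0183), with group means higher in S-phase and lower in G2/M cells. Mcm3 (0.51, adjusted p = 0.0387) and Mcm4 (0.45, adjusted p = 0.0387) were called in the same direction. Both classes were chosen by cell-cycle genes, and the levels of those genes also differed with diet. In G2/M cells the rule's G genes summed to 1301 to 1580 CPM in male RD and 1598 to 2052 CPM in male HFD mice. In females they summed to 1834 to 2126 CPM with RD and 2137 to 2412 CPM with HFD, so the diets did not overlap in either sex. Whether the diet shifted where cells stood within a class was not tested.

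Chaf1b had the widest such gap, 0.85 ± 0.13 SE (edgeR adjusted p = 0.0183). In S-phase cells Chaf1b was 41.1, 56.1 and 48.5 CPM in male RD and 50.6, 52.2 and 51.6 CPM in male HFD mice, which overlapped, and 57.3, 58.0 and 59.8 against 71.5, 72.7 and 64.3 CPM in females, which did not. In G2/M cells it was 7.03, 12.6 and 6.54 against 4.35, 5.26 and 5.11 CPM in males and 6.65, 9.78 and 8.43 against 6.49, 5.54 and 6.25 CPM in females, every HFD mouse being below every RD mouse of its sex. Thus G2/M cells, at a low level, gave much of the difference. Mill1 (0.81), Calml3 (0.42), Siva1 (0.39), Trp53inp1 (0.39) and Krt6a (0.37) were also called in this direction, as were Krtdap, Srm, Klk8 and Nme2, which are named after their values were seen, while Tmem218 (−0.45) and Cby1 (−0.39) were called in the other. No gene of the G2 and mitosis list was called, and all 25 had a difference below 0, with a median of −0.27 and 16 lower at an unadjusted p under 0.05, against 4.04% of all genes. Ribosomal protein genes were above 0 in 88 of 94 cases, with a median of 0.11 and 71 higher at that p, against 6.98% of all genes. Suprabasal keratinocyte genes also had differences above 0 in 13 of 13 cases, with a median of 0.24, 6 higher at that p and 2 called (Krtdap and Krt6a), and terminal differentiation genes in 10 of 12 (median 0.23, none higher at that p). The part of suprabasal cells in the differences between the classes was not tested. The number of calls was between 0 and 67 when 1 mouse was left out, 0 without the third male HFD or the second female RD mouse and 67 without the first female RD mouse, and 1 without the first male HFD or either the first or the second female HFD mouse.

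**Figure D5:**
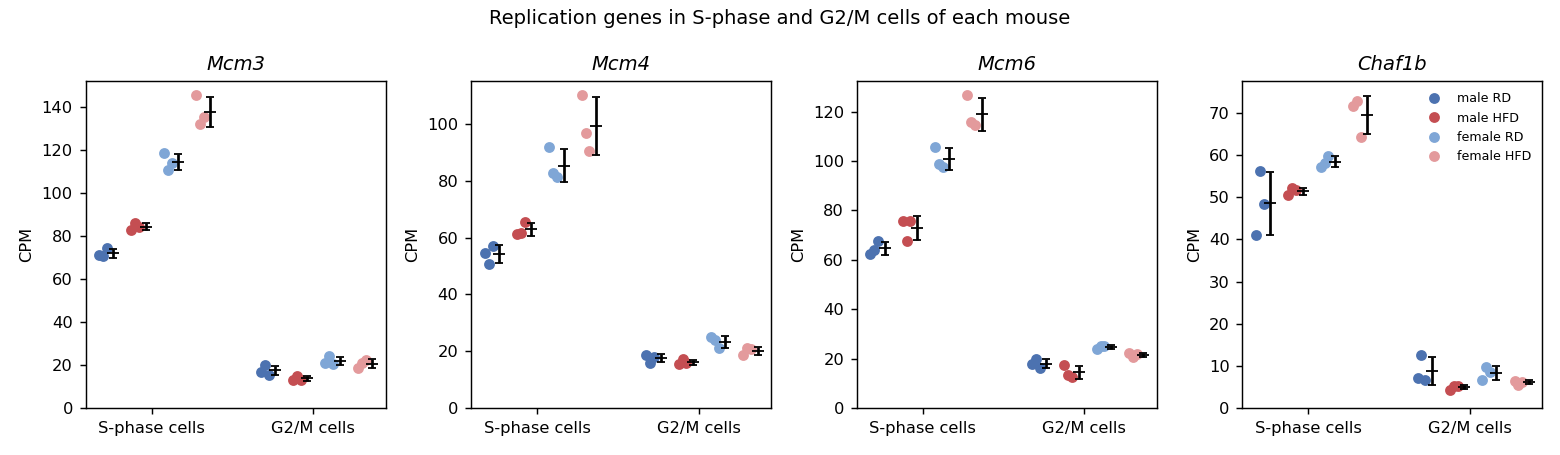
CPM of Mcm3, Mcm4, Mcm6 and Chaf1b in S-phase and G2/M keratinocytes, by group, with mice as points and mean ± SD as bars. HFD mice lie above RD mice of the same sex in S-phase cells for Mcm3 (82.9 to 86.0 against 70.6 to 74.4 CPM in males), while the G2/M values stay low in all groups.

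Against resting basal cells, 1 gene of 13133 differed in its change with diet (percent called 0.00761, edgeR). S100a9, an antimicrobial calcium-binding gene that keratinocytes and neutrophils make, was 0.296, 0.163 and 0.557 CPM in S-phase cells of male RD, 1.33, 0.110 and 0.878 of male HFD, 4.88, 71.6 and 6.68 of female RD and 88.3, 114 and 0.0905 of female HFD mice (difference 2.80 ± 0.34 SE, adjusted p = 0.00403). In resting basal cells it was 2.30, 7.06 and 79.1 CPM in male RD, 0.271, 1.69 and 0.876 in male HFD, 6.85, 85.6 and 6.79 in female RD and 14.7, 22.6 and 0.664 in female HFD mice. Single mice set these levels, with values over a wide range within a group, and 0 genes passed without the second female RD mouse, without the first or the second female HFD mouse, or with marked doublets removed. Without the third male RD mouse 10 genes passed. The helicase list had 17 of 20 differences above 0 (median 0.30), the fork list 24 of 24 (median 0.24) and the fork protection list 21 of 23 (median 0.36), with 12, 15 and 14 at an unadjusted p under 0.05, against 4% of all genes higher and 3.84% lower. Suprabasal keratinocyte genes were above 0 in 11 of 13 cases, with 3 higher at that p. Terminal differentiation genes were above 0 in 10 of 12 cases (median 0.45), and mitochondrially encoded genes in 0 of 13. Resting basal cells were chosen for no UMI of cell-cycle genes, and their median UMIs were 4018 to 6651 in male RD and 7091.5 to 8790.5 in male HFD mice. In females they were 6421.5 to 8728 with RD and 8526 to 9987 with HFD. Helicase genes in resting basal cells summed to 286 and 277 CPM in male RD and HFD, and to 301 and 262 CPM in female RD and HFD mice. The part of depth and of that choice in these differences was not tested. After S100a9, the next genes by p, Lgr5 (−1.25), Mms22l (0.58), Atad5 (0.48) and Wdfy2 (−0.41), did not pass (edgeR adjusted p = 0.0945).

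Males and females differed in 9355 of 12677 genes (percent called 73.8, edgeR adjusted p under 0.05), 4489 higher and 4866 lower in males, beside 36.2% and 39.2% at an unadjusted p under 0.05. The Y-linked genes Eif2s3y (log2 fold change 12.03), Ddx3y (9.44) and Uty (8.98) and the X inactivation RNA Xist (−13.12) followed the labelled sexes, and 1600010M07Rik and the agouti gene a were the other genes furthest on the female side. Since counting software changed with sex, the number cannot be read as a number of genes that depend on sex. Genes with 1 exon had a median log2 difference of 0.46 (405 genes), against −0.04 for 12269 genes with 2 exons or more. The scale mattered as well, because the median gene lay 0.50 lower in males on the CPM scale and 0.03 lower after TMM scaling. Histone genes, those of the rule included, stood higher in males, 50 of 59 tested being called higher and 2 lower with a median of 1.74 after TMM. Helicase genes were lower in males in the median on both scales, by 0.87 on the CPM scale and by 0.39 after TMM, with 16 of 20 called lower and 3 higher. Nucleotide genes had a median of −0.43 on the CPM scale and 0.06 after TMM, so their direction depended on the scale. Rrm2 was 67.8 to 92.7 CPM in males and 198 to 276 CPM in females (log2 difference −1.01 after TMM).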

How the data were processed

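Epidermal sheets of hind paws were dissociated and sequenced with 10x Genomics 3' v3.1 droplets. The authors deposited raw UMI counts of 32285 genes per called barcode, aligned to the mm10 2020-A reference. The submitters' processing notes name Cell Ranger 7.2.0 and Seurat 5.0.0, whereas the headers of the male files name Cell Ranger 6.1.0. The study's methods treat doublets by the upper limit on genes per cell. Whether intron reads were counted or ambient RNA was removed is not given in the sources used here.

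Cells were classed by the stated rule in Python 3.11.15, and counts were summed per mouse. Members and gene lists were chosen with earlier results of these data known. Sums were filtered with filterByExpr, scaled by TMM and tested in edgeR 4.0.16 (glmQLFTest, R 4.3.3), and p-values were adjusted by Benjamini-Hochberg over all genes tested (threshold 0.05). DESeq2 1.42.0 was an alternative. CPM values are summed UMIs scaled to the total of the class in that mouse, without TMM. The mouse was the replicate, and labels do not say whether mice shared cages or days of preparation. Shares were compared with exact permutation tests that went through every assignment of mice (numpy 2.4.6), adjusted over 12 tests, or over those repeated where a mouse was left out.

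Doublets were kept. As an alternative, the barcodes with the highest Scrublet scores (scanpy 1.11.5), 0.8% of barcodes per 1000 barcodes, were removed, since Scrublet's own threshold marked almost none in most libraries. Other alternatives thinned cells to 5000 UMIs with a minimum of 3 S UMIs, raised the minimum to 8 S UMIs, dropped the limit on genes (239 more cells), used DESeq2's size factors or no filter, left out each mouse, or used replicate numbers as a block. Genes named were, per diet comparison, the 10 higher and 10 lower with the largest change past the threshold and no overlap of the groups, or the 5 with the smallest p where fewer than 3 passed, 3 in each direction between the sexes, and for the description list genes and those with the highest ratios. Absence of overlap was not asked for in the interaction or in the comparisons of the diet change between classes. Some of these genes are not reported here. The test was checked on simulated data.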

Additional observations from a re-analysis of the deposited data

Results flagged for a closer look

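The change with diet in S-phase cells differed between males and females, by the interaction test of edgeR, for Zranb2 (−1.18, males minus females, on the log2 scale), Pdzd11 (−0.97) and Coa3 (−0.79). In each the female RD mice had the lowest CPM of the 4 groups, and sex cannot be told apart from the counting software.

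The change with diet differed between S-phase and G2/M cells, in the direction of S-phase cells, for the replication genes Chaf1b (0.85), Mcm6 (0.53), Mcm3 (0.51) and Mcm4 (0.45), and for Mill1 (0.81), Calml3 (0.42), Siva1 (0.39), Trp53inp1 (0.39) and Krt6a (0.37). It differed in the other direction for Tmem218 (−0.45) and Cby1 (−0.39). Mill1 in S-phase cells was 0.443 to 1.45 CPM in males and 15.6 to 80.6 CPM in females, with the diets overlapping in both sexes.

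The change with diet in S100a9 differed between S-phase and resting basal cells by 2.80 on the log2 scale. Its CPM in S-phase cells of female HFD mice was 88.3, 114 and 0.0905, so that the third mouse lay below all female RD mice. Groups of 3 mice were too small for a test of single outlying mice.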

How the results depend on the processing

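The limits were the 3 mice per group, the UMI minimum that defines the class, and the counting software that changed with sex. Differences of HFD minus RD that changed sign were the male S-phase share when thinned to 5000 UMIs (−0.651 percentage points) and the suprabasal-keratin share of S-phase cells, when thinned in males (−1.92) and over both sexes (−0.447), and with a minimum of 8 S UMIs in females (−0.593) and over both sexes (−0.205). The cause was not tested. With 1 mouse left out, the S-phase share differed by 0.467 to 1.54 points in males, 0.293 to 2.28 in females, 0.606 to 1.60 over both sexes and 1.67 to 2.50 between males and females. The suprabasal-keratin share differed by −0.724 to 1.76, −0.933 to 1.79, −0.207 to 1.17 and 3.72 to 4.85 points in the same order, and the log2 ratio of S-phase to G2/M cells by 0.16 to 0.57, −0.08 to 0.56 (−0.077 without the third female HFD mouse), 0.17 to 0.49 and 0.70 to 0.96. Without the third female HFD mouse the 3 differences between males and females passed after adjustment (2.50 points for the S-phase share, adjusted p = 0.0195 by the exact permutation test, 4.81 points for the suprabasal-keratin share and 0.96 for the log2 ratio), and without the third male RD mouse the latter 2 did (4.85 points and 0.92). These differences cannot be told apart from the counting software. Their p-values were adjusted over fewer than the 12 tests of the main setting, since tests within the other sex were not repeated when a mouse was left out. With marked doublets removed, the suprabasal-keratin share was 12.1% in male RD and 15.5% in male HFD mice, against 13.3% in female RD and 13.4% in female HFD mice. The male RD mean then lay below both female means.

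Counts of genes called depended on tool and filter. Without a filter on low counts 119 genes passed in males, 634 in females, 366 over both sexes, 283 for the interaction, 324 against G2/M cells and 176 against resting basal cells. DESeq2 called 7, 164, 128, 43 and 97 of the first 5. Removing marked doublets gave 5 for the interaction and 0 against resting basal cells, DESeq2's size factors in edgeR gave 8 against G2/M cells, and no upper limit on genes gave 46. With 1 mouse left out the counts were 0 to 2 in males, 0 to 223 in females, 0 over both sexes, 0 to 51 for the interaction, 9223 to 9385 between males and females, 0 to 67 against G2/M cells and 0 to 10 against resting basal cells. The 2 in males came without the second male RD mouse. Deviations of same-numbered mice from their group means correlated at 0.056, 0.203 and 0.195 in males, above all different-numbered male pairs (−0.187 to 0.021), and at −0.090, −0.402 and −0.256 in females (different-numbered −0.228 to 0.333). Since not every pair was over 0.1 and the labels state no pairing, the numbers were not taken to pair mice, although every male correlated best with its own number, as a hint from the data. With the replicate block 0 genes passed in females and 0 for the interaction. For single genes named, no setting reversed a direction. Of their values with 1 mouse left out 346 kept their side of the threshold, 220 lost it and 4 gained it, and of those under other settings 250, 43 and 30.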
